A study of Homo sapiens with 9 samples.

Results

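The 56 genes described here encode the chains of collagens and laminins, the 2 large protein families that build basement membranes and fibrous matrix. Their symbols, and no measured value, set which of the 28395 genes of the count table are members, and they are 44 collagen genes and 12 laminin genes. RNA was sequenced from 3 human kidney lines with 3 libraries each, all grown stably in full Plasmax, a medium modelled on human plasma, with no treatment named in the labels. HK2 is an immortalized line of proximal tubule cells from normal kidney, 786-O comes from a primary clear cell renal cell carcinoma (ccRCC), and 786-M1A is a metastatic derivative of 786-O that was recovered from lung after injection into mice. Each group is a single cell line. The study describes its RNA-seq replicates as independent cultures, plated in replicate dishes the day before RNA extraction, so a p-value measures the spread between cultures of 1 line.

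The libraries held 30212291 to 45362428 reads on genes, and for all 9 the closest library was from the same line. Levels are in CPM, counts scaled to equal library totals. *PAX8*, a transcription factor of the kidney epithelium and 1 of 7 listed epithelial markers, had a mean of 167 CPM in HK2, against 165 in 786-O and 182 in 786-M1A. Other markers of that list differed more between the lines. In the same order, *EPCAM* was at 74.1, 0.573 and 8.86 CPM, *CDH1* at 4.53, 0.0931 and 0.00922, and *KRT19* at 106, 5.9 and 186. *PAX2* was 7.11-fold higher in 786-O and 3.03-fold higher in 786-M1A than in HK2 in the edgeR fit. Of 9 proximal tubule markers, 3 (*LRP2*, *SLC22A6* and *SLC22A8*) were at 0 in every library, HK2 included, and the list summed to 108 to 114 CPM in HK2, against 192 to 197 in 786-O and 106 to 117 in 786-M1A. Of that sum, *GGT1* gave 108, 80.6 and 88.3 CPM in HK2, 786-O and 786-M1A, and *ANPEP* gave 1.75, 112 and 19.8. Each other marker of this list had a mean of at most 1.06 CPM in any line. Of 4 ccRCC markers listed, 3 were in the count table. They summed to 4 to 4.54, 47.2 to 60.7 and 127 to 133 CPM in HK2, 786-O and 786-M1A. *CA9* among them had at most 3 counts in any library, and *ANGPTL4* had means of 2.58, 3.12 and 3.25 CPM. The rise of the sum came almost wholly from *EGLN3*, with a mean of 1.72 CPM in HK2 and 128 in 786-M1A. In the edgeR fit *EGLN3* was 29.3-fold higher in 786-O and 74.7-fold higher in 786-M1A than in HK2.

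Collagens are trimers of chains wound into a triple helix. Fibrillar collagens give tissues their tensile strength, type IV collagen forms the sheet of the basement membrane, type VI forms beaded filaments around it, and FACIT collagens sit on the surface of fibrils. Laminins are cross-shaped trimers of an alpha, a beta and a gamma chain, and they are the proteins on which epithelial cells, those of the kidney tubule among them, anchor to their basement membrane. *LAMA3* and *LAMB3* belong to the hemidesmosome laminin of epithelia, while *LAMA5*, *LAMB1* and *LAMC1* form the main laminin of mature basement membranes.

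The share of all counts that fell on collagen genes was 0.630% ± 0.0164 (SD, n = 3) in HK2, against 0.415% ± 0.0172 in 786-O and 0.466% ± 0.0130 in 786-M1A. Laminin genes held 0.343% ± 0.0131 in HK2, against 0.185% ± 0.00592 in 786-O and 0.162% ± 0.0101 in 786-M1A. The make-up of the collagen share differed more than its size. *COL4A1* and *COL4A2*, the main chains of type IV, took 64.0% to 65.0% of the collagen counts of HK2, 35.9% to 36.4% of those of 786-O and 20.7% to 21.7% of those of 786-M1A. *COL6A3*, a chain of type VI, took 0.0649% to 0.0737%, 8.86% to 10.1% and 35.4% to 41.1%. In bulk RNA, fewer expressing cells and less RNA per cell cannot be told apart.

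Of the members, 32 averaged at least 50 counts, 22 collagens and 10 laminins, and only these were tested. In 10 of them a line had a mean under 50 counts, so that they passed through the lines where they were high, and the filter favoured their direction. Among these, *COL5A1*, *COL11A1*, *COL9A2*, *COL22A1*, *COL8A2*, *LAMA1*, *LAMA2* and *LAMC3* were highest in HK2. They are all counted below as lower by 2-fold or more in both cancer lines. Between 786-O and HK2, 29 of the 32 had an adjusted p under 0.05 in edgeR's quasi-likelihood test, as had 84.2% of all 12695 genes tested. In 786-O 11 members were higher (41.6% of all genes) and 18 lower (42.6%). By 2-fold or more, 20 members differed (22.3% of all genes), 4 being higher (9.18%) and 16 lower (13.1%). Between 786-M1A and HK2, 29 members passed (84.9% of all genes), 6 higher (41.6%) and 23 lower (43.3%), and 21 of them by 2-fold or more (25.4%), 2 higher (10.4%) and 19 lower (15.0%). Between 786-M1A and 786-O, 23 members passed (56% of all genes), 10 higher (27.9%) and 13 lower (28.0%), and 10 of them by 2-fold or more (6.59%), 5 higher (2.03%) and 5 lower (4.55%). The median log2 fold change (log2FC) of the members tested was -0.98, -1.61 and -0.19 in these 3 comparisons, and that of all genes tested was -0.01, -0.02 and 0.00. Each pair of these comparisons shares the libraries of a line. With at least 10 counts required in every library, 24 members were tested. By 2-fold or more, 3 were then higher and 10 lower in 786-O than in HK2 (18.4% of all genes differed). In 786-M1A 2 were higher and 11 lower than in HK2 (21.6%), and 4 were higher and 3 lower than in 786-O (4.73%).

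**Figure D1:**
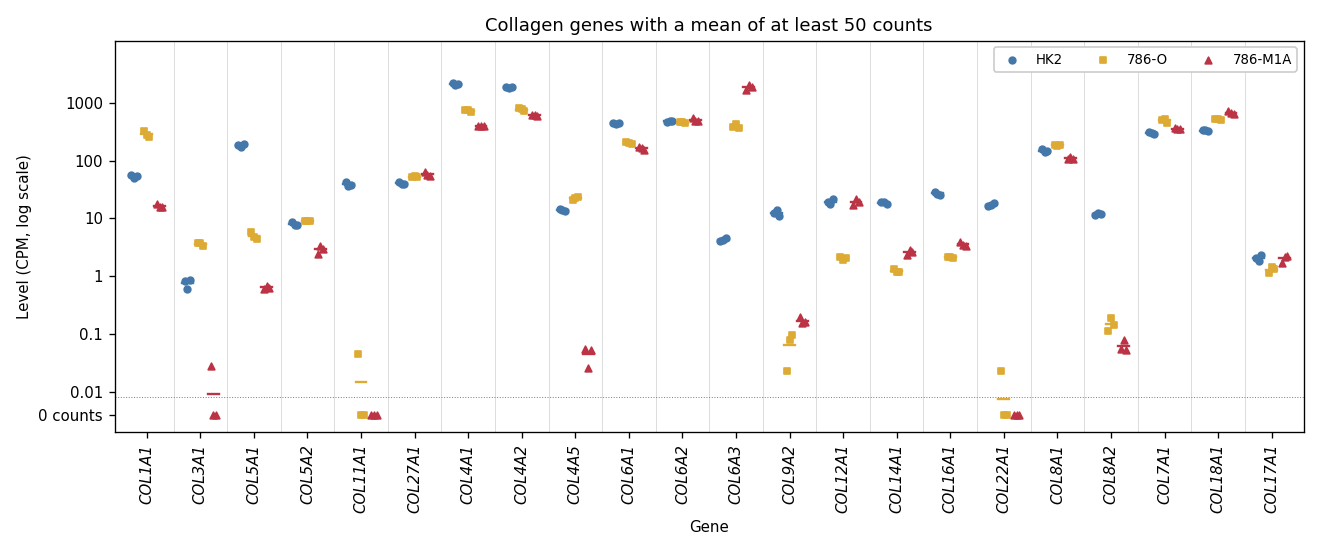
Level of the 22 collagen genes tested in each library (CPM, log scale), with circles for HK2, squares for 786-O, triangles for 786-M1A and a bar at the mean of each line. Points under the dotted line stand for libraries with 0 counts. *COL6A3* is lowest in HK2 and highest in 786-M1A, while *COL5A1*, *COL11A1*, *COL22A1* and *COL8A2* are high only in the HK2 libraries.

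The basement membrane chains *COL4A1* and *COL4A2* were the collagen genes with the most reads in HK2, and both were lower in the cancer lines. They form the type IV trimer found in nearly all basement membranes. *COL4A1* (NCBI gene 1282, chromosome 13, 110148963 to 110307157 of GRCh38) was at 2180, 2010 and 2100 CPM in the HK2 libraries, at 744, 742 and 698 CPM in 786-O and at 392, 406 and 397 CPM in 786-M1A. The 3 lines did not overlap, with HK2 highest and 786-M1A lowest. Its log2FC was -1.53 between 786-O and HK2 (standard error, SE, 0.0368, edgeR adjusted p = 7.78e-20), -2.40 between 786-M1A and HK2 (adjusted p = 4.56e-23) and -0.87 between 786-M1A and 786-O (adjusted p = 1.55e-14).

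*COL4A2* (NCBI gene 1284, chromosome 13, 110305812 to 110513209) was at 1920, 1810 and 1890 CPM in HK2, at 812, 781 and 712 CPM in 786-O and at 630, 628 and 589 CPM in 786-M1A. It followed the same order of lines with smaller steps, a log2FC of -1.29 in 786-O and of -1.61 in 786-M1A against HK2 (adjusted p from edgeR 5.12e-16 and 1.44e-17), and of -0.32 between the cancer lines (adjusted p = 3.57e-06). Per kb of canonical transcript, the level of *COL4A2* over that of *COL4A1* was 0.908 ± 0.0121 (SD, n = 3) in HK2, against 1.07 ± 0.0367 in 786-O and 1.57 ± 0.0613 in 786-M1A. The ratio rose from library range to library range without overlap, from at most 0.916 in HK2 to at least 1.51 in 786-M1A. With the length of all exons in place of the canonical transcript it was 0.681, 0.803 and 1.18, so the order of the lines held and the point of equality between chains did not.

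The type IV genes lie in head-to-head pairs. The RefSeq start sites of *COL4A1* and *COL4A2* are 127 bp apart, those of *COL4A4* and *COL4A3* on chromosome 2 are 419 bp apart, and those of *COL4A6* and *COL4A5* on chromosome X are 380 bp apart. The sequence between the start sites of the first pair, and the 250 bases before *COL4A5*, are shown because neighbouring start sites gave like changes in the first pair while *COL4A6* was hardly read in any line. They are from RefSeq on GRCh38.p14, 5′ to 3′ on the plus strand. Capitals mark GC boxes (GGGCGG on either strand), the sites of SP family factors, and CCAAT boxes (CCAAT on either strand).
COL4A1 to COL4A2, chr13:110307158-110307283: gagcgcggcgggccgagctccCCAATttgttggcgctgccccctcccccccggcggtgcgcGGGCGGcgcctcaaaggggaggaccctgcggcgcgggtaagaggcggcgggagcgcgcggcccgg
COL4A5, chrX:108439588-108439837: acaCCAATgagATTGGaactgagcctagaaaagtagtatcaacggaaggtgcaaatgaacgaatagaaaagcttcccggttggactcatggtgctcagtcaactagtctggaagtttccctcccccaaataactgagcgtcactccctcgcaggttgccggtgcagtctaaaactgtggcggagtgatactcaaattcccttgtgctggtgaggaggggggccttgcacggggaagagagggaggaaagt
The stretch between *COL4A1* and *COL4A2* held 1 GC box, 1 CCAAT box and 20 CpG in 126 bases. That of *COL4A5* held 0 GC boxes, 2 CCAAT boxes and 8 CpG in 250 bases. In GENCODE, *COL4A2* begins at 110305812, before the stretch shown for its pair.

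*COL4A5*, a chain of the specialised type IV collagen of the glomerulus and distal tubule, was read in HK2 and 786-O and nearly absent in 786-M1A. Its level was 14.4, 14 and 13.3 CPM in HK2, 21.1, 23.0 and 23.3 CPM in 786-O and 0.0553, 0.0261 and 0.0529 CPM in 786-M1A, the last of these from 1 or 2 reads per library. The 786-O libraries were above the HK2 libraries by a log2FC of 0.69 (SE 0.0617, edgeR adjusted p = 8.47e-10). Between 786-M1A and 786-O the log2FC was -8.88 (SE 0.167, adjusted p = 1.86e-20). *COL4A3* and *COL4A4*, the other chains of that network, and *COL4A6*, a chain of another type IV trimer, had between 0 and 19 counts per library and were not tested.

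Type VI collagen is assembled from 3 chains, which moved apart between the lines. *COL6A3* (NCBI gene 1293, chromosome 2, 237324003 to 237414328), its longest chain, was at 4.09, 4.17 and 4.54 CPM in HK2, at 378, 427 and 363 CPM in 786-O and at 1670, 2050 and 1920 CPM in 786-M1A. The lines did not overlap, and the order was the reverse of that of *COL4A1* and *COL4A2*. The log2FC was 6.50 between 786-O and HK2 (SE 0.120, edgeR adjusted p = 1.09e-11), 8.77 between 786-M1A and HK2 (SE 0.125, adjusted p = 1.19e-12) and 2.27 between 786-M1A and 786-O (SE 0.0833, adjusted p = 1.19e-08). It had the largest positive log2FC of the members tested in both comparisons with HK2.

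The partner chain *COL6A1* was at 448, 439 and 454 CPM in HK2, at 207, 203 and 195 CPM in 786-O and at 176, 166 and 155 CPM in 786-M1A, so that it fell where *COL6A3* rose. Its log2FC against HK2 was -1.15 in 786-O and -1.43 in 786-M1A (edgeR adjusted p = 1.13e-16 and 2.19e-18). *COL6A2*, which lies next to *COL6A1* on chromosome 21, was at 477, 491 and 493 CPM in HK2, at 467, 462 and 441 CPM in 786-O and at 548, 492 and 479 CPM in 786-M1A. It was not called against HK2 in either line (log2FC -0.09 and 0.06, edgeR adjusted p = 0.0510 and 0.220), and was slightly higher in 786-M1A than in 786-O (0.15, adjusted p = 0.00561).

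Per kb of transcript, the level of *COL6A3* over the mean of its 2 partners was 0.00327 ± 0.000142 (SD, n = 3) in HK2, against 0.409 ± 0.0302 in 786-O and 1.93 ± 0.305 in 786-M1A. With the length of all exons it was 0.00231, 0.296 and 1.41. The *COL6A3* chain was thus far below the mean of its partners in HK2 and above that mean in 786-M1A by either length. This holds for the mean and not for each partner alone. By canonical length, *COL6A3* was at 178 CPM per kb in 786-M1A, against 147 for *COL6A2* and 39.4 for *COL6A1*. *COL6A5* and *COL6A6*, which encode alternative chains to *COL6A3*, had at most 1 count in any library.

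The 250 bases before the start sites of *COL6A2* and *COL6A3* are shown because these chains of 1 trimer had such different patterns. Both are from RefSeq on GRCh38.p14, 5′ to 3′ on the strand of the gene, plus for *COL6A2* and minus for *COL6A3*, with GC and CCAAT boxes in capitals.
COL6A2, chr21:46097862-46098111: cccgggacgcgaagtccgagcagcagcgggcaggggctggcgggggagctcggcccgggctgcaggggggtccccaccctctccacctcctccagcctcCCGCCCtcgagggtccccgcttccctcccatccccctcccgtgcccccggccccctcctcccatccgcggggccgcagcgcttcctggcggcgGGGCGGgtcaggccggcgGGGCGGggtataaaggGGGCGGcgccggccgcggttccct
COL6A3, chr2:237414165-237414414: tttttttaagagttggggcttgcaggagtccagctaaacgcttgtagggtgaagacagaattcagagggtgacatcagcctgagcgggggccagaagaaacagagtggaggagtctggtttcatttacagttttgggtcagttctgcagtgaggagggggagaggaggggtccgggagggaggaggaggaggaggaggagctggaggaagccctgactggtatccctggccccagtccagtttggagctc
The *COL6A2* window held 4 GC boxes and 28 CpG, and the *COL6A3* window held 0 GC boxes and 3 CpG. In GENCODE, *COL6A3* starts at 237414328, inside its window, so the annotations differ on its start site. Part of that window may thus be transcribed. A GC box was present in 42.6% of all 35116 windows of this length in the table and in 58.2% of the 55 windows of members, which cover 41 of the 56 genes. A CCAAT box was present in 32.0% of all windows and in 25.5% of those of members. The median number of CpG was 11 over all windows and 12 over those of members, with a range from 1 to 40 among members.

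**Figure D2:**
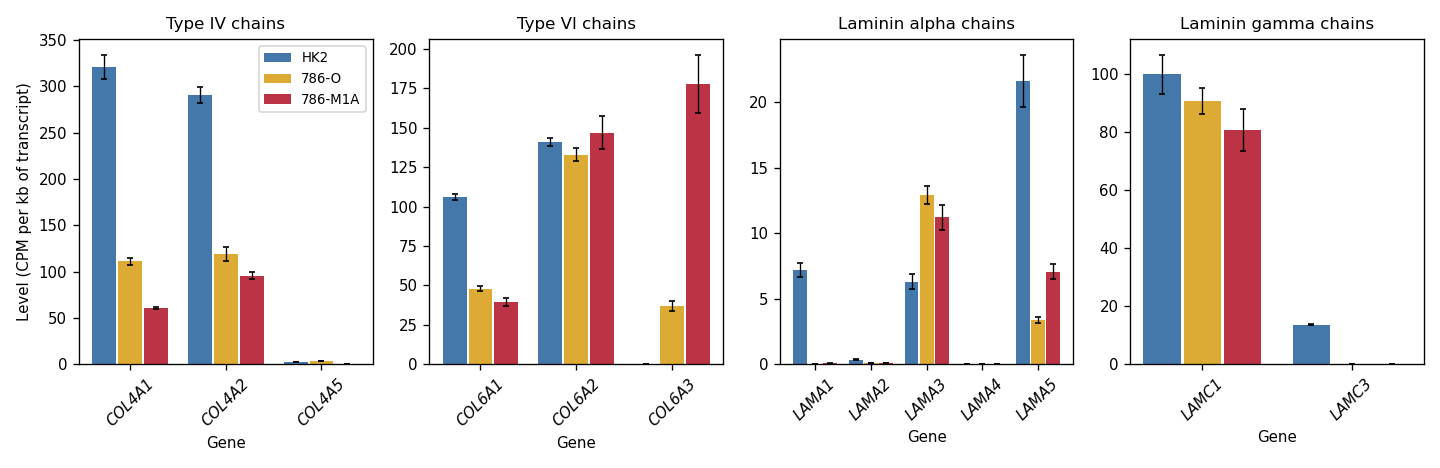
Mean level per kb of canonical transcript of the chains of type IV, type VI and laminin trimers (bars, with SD over 3 libraries), each panel on its own axis from 0. *COL6A3* reaches 178 CPM per kb in 786-M1A from 0.405 in HK2, and *LAMA3* passes *LAMA5* in both cancer lines.

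Among the fibrillar collagens, *COL1A1* and *COL3A1* were highest in 786-O, while *COL5A1* and *COL11A1* were highest in HK2. *COL1A1* (NCBI gene 1277, chromosome 17, 50184101 to 50201632) encodes the alpha 1 chain of type I collagen, the main collagen of fibrous tissue. It was at 57.6, 49.2 and 54.4 CPM in HK2, at 329, 284 and 261 CPM in 786-O and at 17.9, 15.5 and 16.1 CPM in 786-M1A. The lines did not overlap, with 786-O above HK2 by a log2FC of 2.44 (SE 0.0922, edgeR adjusted p = 1.49e-09) and 786-M1A below it by -1.70 (SE 0.106, adjusted p = 9.99e-08). Between 786-M1A and 786-O the log2FC was -4.15 (SE 0.105, edgeR adjusted p = 2.70e-10). *COL1A2*, the chain with which it forms the usual type I trimer, had 0 counts in every HK2 library, 4, 2 and 4 counts in 786-O and 0, 0 and 1 counts in 786-M1A. Nearly all type I reads were thus of the alpha 1 chain, at a depth where 3 counts are 0.0649 to 0.0966 CPM.

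*COL3A1*, the homotrimeric type III collagen, followed *COL1A1* at a lower level, with 0.837, 0.596 and 0.865 CPM in HK2, 3.70, 3.75 and 3.40 CPM in 786-O and 1, 0 and 0 counts in the 786-M1A libraries. It was higher in 786-O than in HK2 by a log2FC of 2.23 (SE 0.157, edgeR adjusted p = 1.45e-11). From 449 counts in 786-O against 1 in 786-M1A, the ratio was 406 with a 95% counting interval of 72.4 to 16100, and against the 90 counts of HK2 it was 86.0 (15.0 to 3430). As reads without molecular identifiers are not independent molecules, intervals and floors here cover counting error only.

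Type V collagen, which starts fibrils and sets their width, had far less of its alpha 1 chain in the cancer lines. *COL5A1* (NCBI gene 1289, chromosome 9, 134641803 to 134844843) was at 189, 174 and 193 CPM in HK2, at 5.84, 4.86 and 4.42 CPM in 786-O and at 0.609, 0.678 and 0.635 CPM in 786-M1A. Each line lay far below the one before it, with a log2FC of -5.20 in 786-O (SE 0.0692, edgeR adjusted p = 1.09e-23) and -8.17 in 786-M1A (SE 0.0958, adjusted p = 1.46e-24) against HK2, and -2.97 between the cancer lines (adjusted p = 1.14e-12). *COL5A2*, its partner, was at 8.08 ± 0.561 CPM in HK2 and 9.02 ± 0.0614 CPM in 786-O, which was not called (adjusted p = 0.0737), and at 2.91 ± 0.492 CPM in 786-M1A, with log2FC values of -1.46 against HK2 and -1.63 against 786-O (edgeR adjusted p = 1.69e-11 and 1.16e-11).

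*COL11A1*, which can join type V chains in mixed fibrils, was at 42.6, 36.7 and 37.7 CPM in HK2. It had 2, 0 and 0 counts in 786-O and 0 counts in every 786-M1A library. Its level in HK2 was at least 487-fold higher than in 786-M1A, counting 3 reads per library as the floor, and 2400-fold higher than in 786-O with an interval of 665 to 19900. *COL27A1* differed by less than 2-fold, with 40.8 ± 1.96, 52.8 ± 0.987 and 58.2 ± 3.79 CPM in HK2, 786-O and 786-M1A. It was higher in both cancer lines by a log2FC of 0.37 and 0.51 (edgeR adjusted p = 5.97e-07 and 3.80e-09).

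The 250 bases before *COL5A1* are shown beside those of *LAMA5*, a laminin chain described further on, as a fibril gene and a basement membrane gene that were both highest in HK2. They are from RefSeq on GRCh38.p14, on the plus strand for *COL5A1* and the minus strand for *LAMA5*, with GC and CCAAT boxes in capitals.
COL5A1, chr9:134641553-134641802: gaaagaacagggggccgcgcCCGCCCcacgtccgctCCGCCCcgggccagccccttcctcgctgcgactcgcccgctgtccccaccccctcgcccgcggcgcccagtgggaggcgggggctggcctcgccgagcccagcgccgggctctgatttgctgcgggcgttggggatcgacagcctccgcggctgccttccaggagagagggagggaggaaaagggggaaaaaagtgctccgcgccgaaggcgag
LAMA5, chr20:62367313-62367562: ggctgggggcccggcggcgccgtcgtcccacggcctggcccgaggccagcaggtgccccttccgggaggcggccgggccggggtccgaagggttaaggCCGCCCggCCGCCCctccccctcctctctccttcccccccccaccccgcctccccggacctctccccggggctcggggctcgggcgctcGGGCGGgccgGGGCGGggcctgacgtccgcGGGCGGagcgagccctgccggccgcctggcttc
They held 2 and 5 GC boxes, no CCAAT box, and 29 and 32 CpG. Both genes were read in all libraries, at levels that differed 288-fold between HK2 and 786-M1A for *COL5A1* and 3.07-fold for *LAMA5*.

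The FACIT collagens were lower in 786-O than in HK2 in each of the 5 tested of the 10 genes, where 42.6% of all genes were lower. Among the 5, *COL9A2* and *COL22A1* passed the count filter only through HK2, so the filter favoured their direction. Of the 5, 3 were higher in 786-M1A than in 786-O, as were 27.9% of all genes. *COL12A1*, which links fibrils to other matrix, was at 19.4, 17.5 and 21.9 CPM in HK2, at 2.17, 1.94 and 2.03 CPM in 786-O and at 17.2, 21.6 and 19.4 CPM in 786-M1A. The HK2 and 786-M1A libraries overlapped (log2FC -0.02, SE 0.0839, edgeR adjusted p = 0.866), and both stood above 786-O, HK2 with a log2FC of -3.26 for 786-O (adjusted p = 1.12e-14) and 786-M1A by a log2FC of 3.24 (SE 0.118, adjusted p = 1.10e-13). This was the largest positive log2FC of the members between the cancer lines.

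*COL14A1* was at 18.6 ± 0.899 CPM in HK2, against 1.21 ± 0.0838 in 786-O and 2.59 ± 0.260 in 786-M1A, and *COL16A1* at 27.1 ± 1.21, 2.12 ± 0.0364 and 3.58 ± 0.283 CPM. In 786-M1A both exceeded their 786-O level, by log2FC values of 1.10 and 0.75 (edgeR adjusted p = 6.66e-07 and 5.26e-06), and both were below HK2 there, by -2.83 and -2.92 (adjusted p = 5.08e-18 and 2.28e-19). *COL9A2*, a chain of the type IX collagen of cartilage, was at 12.4 ± 1.35 CPM in HK2 with 1 to 7 counts in each library of the cancer lines, with log2FC values of -7.51 and -6.16 (edgeR adjusted p = 7.58e-19 and 2.02e-18). *COL22A1* had 504, 684 and 853 counts in HK2, 1, 0 and 0 in 786-O and 0 in every 786-M1A library. It was at least 215-fold higher in HK2 than in 786-M1A, and 2160-fold higher than in 786-O with an interval of 387 to 85300.

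Of the network collagens, *COL8A1* and *COL8A2*, the chains of type VIII, differed in unlike measure. *COL8A1* was at 149 ± 9.88 CPM in HK2, against 186 ± 3.22 in 786-O and 110 ± 5.38 in 786-M1A, with 786-O highest and 786-M1A lowest. *COL8A2* was at 11.6, 12.5 and 11.8 CPM in HK2 and had 5 to 7 counts per library in 786-O and 2 or 3 in 786-M1A, a log2FC against HK2 of -6.34 and -7.51 (edgeR adjusted p = 8.09e-20 and 7.69e-20). The per-library order of *COL8A1* was called in each comparison, with log2FC values of 0.32 and -0.44 against HK2 and -0.76 between the cancer lines (edgeR adjusted p = 1.32e-06, 1.27e-08 and 7.82e-12).

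The tested collagens of other classes stayed within 2.04-fold of HK2. *COL7A1*, the anchoring fibril collagen that binds the hemidesmosome laminin, was at 308, 301 and 285 CPM in HK2, at 454 to 530 CPM in 786-O and at 363, 355 and 351 CPM in 786-M1A. It was higher in both cancer lines, by log2FC values of 0.74 and 0.26 (edgeR adjusted p = 2.24e-11 and 5.54e-05), and lower in 786-M1A than in 786-O (-0.48, adjusted p = 5.32e-08). *COL18A1*, the multiplexin from which endostatin is released, was at 338, 337 and 323 CPM in HK2, at 531, 517 and 498 CPM in 786-O and at 721, 662 and 650 CPM in 786-M1A. It rose from line to line without overlap, by log2FC values of 0.63 in 786-O and 1.03 in 786-M1A against HK2 (adjusted p = 2.60e-12 and 4.15e-16). Its exons share 1563 bp with *SLC19A1* on the other strand, so its counts are uncertain if the strand was not used. *COL17A1*, the hemidesmosome collagen, was at 2.08 ± 0.251, 1.30 ± 0.143 and 2.03 ± 0.277 CPM, lower in 786-O than in HK2 (edgeR adjusted p = 0.000341) and than in 786-M1A (adjusted p = 0.00159).

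Among the laminin alpha chains, which carry the binding sites for cell receptors, *LAMA5* and *LAMA1* were lower and *LAMA3* higher in the cancer lines. *LAMA5* (NCBI gene 3911, chromosome 20, 62307955 to 62367312), the alpha chain of the mature tubular basement membrane, was at 262, 221 and 258 CPM in HK2, at 39.8, 40.1 and 35.4 CPM in 786-O and at 77.8, 87.8 and 75.9 CPM in 786-M1A. The lines did not overlap, and 786-M1A stood between the others, with log2FC values of -2.69 and -1.62 against HK2 (SE 0.0800 and 0.0756, edgeR adjusted p = 6.07e-12 and 5.54e-10) and 1.07 against 786-O (adjusted p = 2.63e-07). Part of its exons, at most 244 bp with any gene, overlaps *ADRM1* on the other strand.

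*LAMA3* (NCBI gene 3909, chromosome 18), the alpha chain of the hemidesmosome laminin, was at 71.5, 60.1 and 69.5 CPM in HK2, at 134, 145 and 133 CPM in 786-O and at 108, 128 and 121 CPM in 786-M1A. Both cancer lines were above HK2, by log2FC values of 1.03 and 0.83 (edgeR adjusted p = 9.47e-09 and 1.03e-07). Between 786-M1A and 786-O the log2FC was -0.20 (edgeR adjusted p = 0.0230). It was not called without 786-O replicate 2 (-0.16, adjusted p = 0.0774), 786-M1A replicate 1 (-0.14, 0.0755) or 786-M1A replicate 3 (-0.21, 0.0560).

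*LAMA1*, an alpha chain prominent in embryonic basement membranes and also found in the tubule, was at 71.1, 63.4 and 73.6 CPM in HK2. In 786-O it was at 0.338, 0.452 and 0.213 CPM, and in 786-M1A at 0.719, 1.07 and 0.635 CPM, with log2FC values of -7.70 and -6.41 against HK2 (edgeR adjusted p = 1.26e-20 and 2.73e-20), and 1.29 between the cancer lines (adjusted p = 0.00155). *LAMA2*, the alpha chain of muscle, was lower as well, with 3.55 ± 0.344, 0.828 ± 0.164 and 0.737 ± 0.0931 CPM (edgeR adjusted p against HK2 2.71e-11 and 1.49e-11). *LAMA4* had 11 to 18 counts per library in HK2 and at most 4 in the cancer lines.

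Per kb of transcript, *LAMA5* made up 60.8% ± 0.468 (SD, n = 3) of the alpha chain level in HK2, against 20.5% ± 0.901 in 786-O and 38.3% ± 1.56 in 786-M1A. *LAMA3* made up 17.7% ± 0.204, 78.7% ± 0.987 and 60.7% ± 1.60, and *LAMA1* 20.3% ± 0.486, 0.210% ± 0.0655 and 0.452% ± 0.0980. The leading alpha chain was *LAMA5* in HK2 and *LAMA3* in both cancer lines, and with the length of all exons *LAMA5* had 65.3%, 22.0% and 40.4%.

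**Figure D3:**
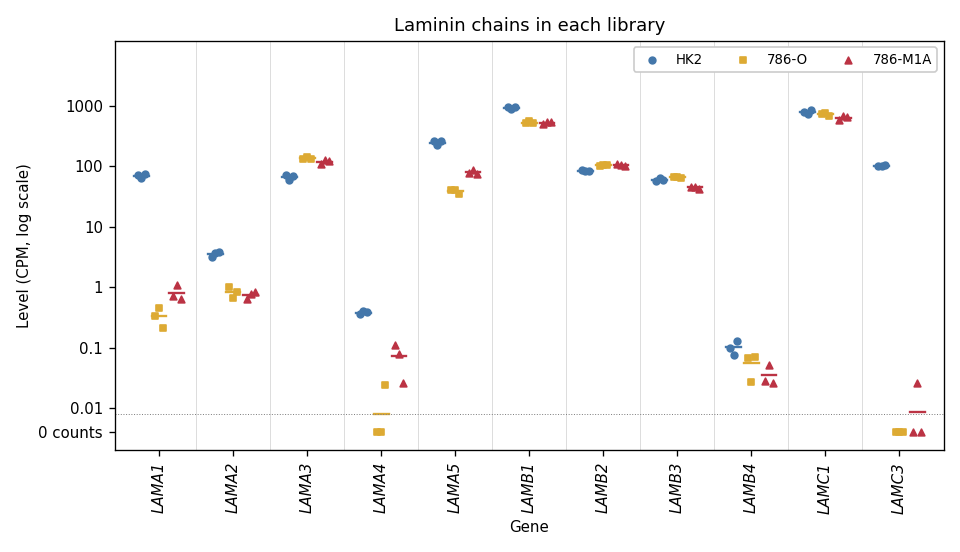
Level of laminin genes in each library (CPM, log scale), with circles for HK2, squares for 786-O, triangles for 786-M1A and a bar at the mean of each line. Points under the dotted line stand for libraries with 0 counts. *LAMC3* and *LAMA1* are read in HK2 and nearly absent in both cancer lines, while *LAMB1*, *LAMB2*, *LAMB3* and *LAMC1* differ by less than 2-fold between lines.

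The beta chains differed less than 2-fold in each of the 3 tested. *LAMB1*, the beta chain of most laminins, was at 945, 896 and 954 CPM in HK2, at 518, 553 and 517 CPM in 786-O and at 493, 547 and 539 CPM in 786-M1A. It was lower in both cancer lines by a log2FC of -0.82 (edgeR adjusted p = 5.60e-14 and 4.23e-14), and the cancer lines overlapped (-0.01, SE 0.0412, adjusted p = 0.898). Its exons share 300 bp with *DLD* on the other strand. *LAMB2*, the beta chain of the glomerulus, was at 84.8 ± 2.92 CPM in HK2, against 103 ± 1.38 in 786-O and 105 ± 3.13 in 786-M1A, higher in both by log2FC values of 0.29 and 0.31 (adjusted p = 8.84e-07 and 2.28e-07). *LAMB3*, the beta chain of the hemidesmosome laminin, was at 56.9, 63.0 and 59.5 CPM in HK2, at 66.2, 66.1 and 64.4 CPM in 786-O and at 45.9, 45.7 and 42.4 CPM in 786-M1A. It was lowest in 786-M1A, with a log2FC of -0.55 against 786-O (adjusted p = 1.68e-09). Its difference between 786-O and HK2, a log2FC of 0.13 (edgeR adjusted p = 0.0118), was not called under upper-quartile scaling (0.09, adjusted p = 0.0794) or without HK2 replicate 1 (0.10, 0.0705). *LAMB4* had 1 to 6 counts per library.

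Of the gamma chains, *LAMC1* differed by less than 2-fold and *LAMC3* was read almost only in HK2. *LAMC1*, the gamma chain of most laminins, was at 796, 737 and 843 CPM in HK2, at 719, 756 and 685 CPM in 786-O and at 576, 687 and 656 CPM in 786-M1A. It was lower in 786-M1A than in HK2 (log2FC -0.31, SE 0.0676, edgeR adjusted p = 0.00124), and its values in 786-O overlapped both other lines.

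*LAMC3* (NCBI gene 10319, chromosome 9, 131009174 to 131094473), a gamma chain of a few laminins, had 3168, 4045 and 4789 counts in HK2, which is 102, 101 and 104 CPM. It had 0 counts in every 786-O library and 0, 1 and 0 in 786-M1A. Its level was at least 1400-fold higher in HK2 than in 786-O, counting 3 reads per library as the floor. Against 786-M1A the ratio was 11500, with a counting interval of 2060 to 453000.

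**Figure D4:**
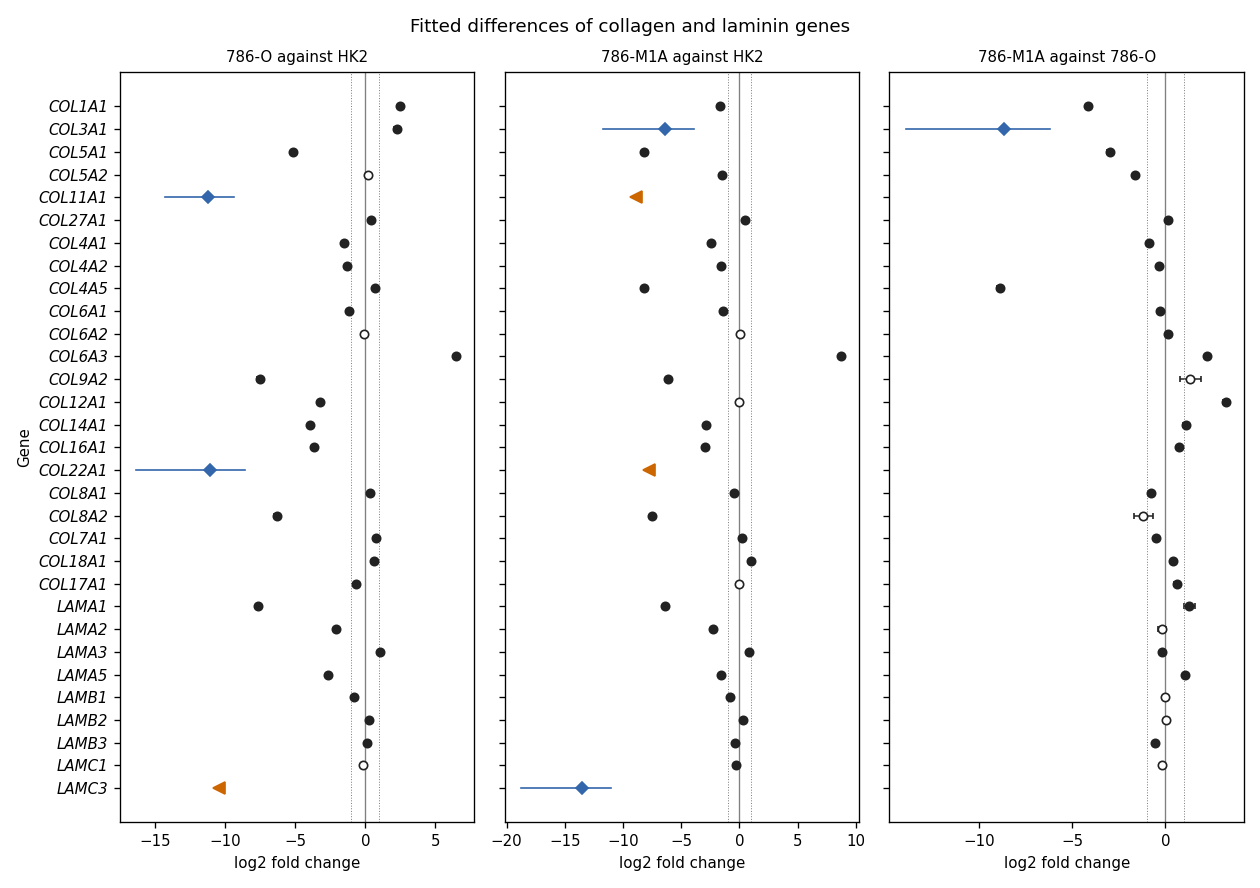
Log2FC of members tested in the 3 comparisons, from edgeR (circles, bars for SE, filled where the adjusted p was under 0.05, dotted lines at a 2-fold difference). Where a line had 3 or fewer counts in all, diamonds give the ratio with its counting interval and triangles the smallest fold the depth allows, and members at or under the floor in both lines are left out. *COL6A3* lies farthest to the right against HK2, and *COL3A1* and *COL4A5* farthest to the left between the cancer lines.

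The 24 members that were not tested were 22 collagens and 2 laminins, and 13 of them had at most 10 counts in every library (*COL1A2*, *COL2A1*, *COL4A6*, *COL6A5*, *COL6A6*, *COL9A1*, *COL10A1*, *COL19A1*, *COL20A1*, *COL21A1*, *COL25A1*, *COL26A1* and *LAMB4*). The highest count of any of the 24 was 104. Among the others, *COL13A1*, a transmembrane collagen, had 0 counts in every HK2 library, 74 to 84 in 786-O and 41 to 62 in 786-M1A. It was at least 24.4-fold higher in 786-O and at least 17.7-fold higher in 786-M1A than in HK2. *COL5A3*, a type V chain, had 7 to 17 counts in HK2, 89 to 104 in 786-O and 0 in every 786-M1A library, at least 29.2-fold higher in 786-O than in 786-M1A. *COL23A1*, another transmembrane collagen, had 0 counts in HK2, against 3 to 13 in 786-O and 6 to 12 in 786-M1A. *COL28A1* had 14 to 22 counts in 786-O and 1 to 3 in 786-M1A, and *COL11A2* and *COL15A1* had 3 to 25 in all lines. When every gene was fitted whatever its counts, *COL13A1* and *COL5A3* were called in all 3 comparisons, *COL13A1* between the cancer lines with an edgeR adjusted p of 0.0231. *COL9A1*, *COL9A3*, *COL20A1*, *COL24A1*, *LAMA4* and *COL26A1* were higher in HK2 than in both cancer lines in that fit, with 2 to 24 counts per HK2 library. *COL23A1* was higher in both cancer lines there (edgeR adjusted p = 6.11e-08 in 786-O and 9.54e-08 in 786-M1A). With 0 counts in HK2 its fitted size depends on the prior count. By the floor it was at least 3.01-fold higher in 786-O than in HK2. Its level in 786-M1A was too near the floor for such a bound. Further members were called in some comparisons of that fit.

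The partners of these proteins in the basement membrane were tested for 10 of 13 listed genes. Against HK2, 3 were higher and 7 lower in 786-O (10 of 10 called, against 84.2% of all genes), and 3 were higher and 7 lower in 786-M1A (84.9% of all genes). Among them, *FBLN1* and *FBLN2* passed the count filter only through HK2 and *EGFLAM* only through the cancer lines. The filter thus favoured their direction. Between the cancer lines, 5 were higher and 2 lower in 786-M1A, 7 of 10 called against 56% of all genes. The 3 higher in both cancer lines were *EGFLAM*, *AGRN* and *HSPG2*. Their log2FC values in 786-O and 786-M1A were 6.60 and 6.56, 1.24 and 1.43, and 1.00 and 1.00. *NID1*, which bridges laminin and type IV collagen, had 9598 to 14185 counts in HK2 and 55 to 139 in the cancer libraries, with log2FC values of -7.53 and -6.59 (edgeR adjusted p = 1.70e-23 and 3.63e-23). The fibulins *FBLN1* and *FBLN2* were lower by log2FC values of -9.43 and -8.03 in 786-O and of -11.09 and -8.20 in 786-M1A (edgeR adjusted p = 2.28e-21 and 3.12e-21 for *FBLN2*), and *FBLN1* was lower in 786-M1A than in 786-O by -1.67 (adjusted p = 0.00291). *PXDN*, the enzyme that crosslinks type IV collagen, was at 251 CPM in HK2, against 18.8 in 786-O and 156 in 786-M1A, with 786-M1A above 786-O by a log2FC of 3.05 (adjusted p = 1.49e-21). In *NID2*, too, 786-M1A was above 786-O, by 1.78 (adjusted p = 4.18e-11).

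Genes for collagen folding and procollagen cleavage were tested for 15 of 16 listed. In 786-O, 8 were higher and 6 lower than in HK2, so that 93.3% were called against 84.2% of all genes, and in 786-M1A, 6 were higher and 7 lower, 86.7% against 84.9%. Among them, *ADAMTS2* passed the count filter only through the cancer lines, so the filter favoured its direction. Between the cancer lines, 3 were higher and 9 lower in 786-M1A, 80.0% against 56% of all genes. *ADAMTS2*, which removes the amino-terminal propeptide of fibrillar collagens, had 0, 0 and 2 counts in HK2, against 274 to 341 in 786-O and 480 to 547 in 786-M1A, ratios to HK2 of 432 (119 to 3570) and 791 (219 to 6540) by counting, and a log2FC of 0.87 between the cancer lines (edgeR adjusted p = 2.33e-08). *CREB3L1*, a transcription factor that activates collagen genes, was at 140 CPM in HK2, against 14.8 in 786-O and 7.45 in 786-M1A, with log2FC values of -3.24 and -4.24 (edgeR adjusted p = 9.74e-14 and 1.37e-14). *TLL1*, a procollagen proteinase, was lower by -2.26 and -2.63 (adjusted p = 1.33e-17 and 2.47e-18), and *PCOLCE2*, an enhancer of such enzymes, had 786-M1A above 786-O by 1.80 (adjusted p = 1.67e-14).

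Receptors of collagen and laminin were tested for 12 of 17 listed genes, and 6 were higher and 6 lower in 786-O than in HK2, 5 higher and 7 lower in 786-M1A. All 12 were thus called against HK2, where 84.2% and 84.9% of all genes were. Among them, *ITGB4* and *ITGA7* passed the count filter only through HK2, so the filter favoured their direction. *ITGB4*, the integrin chain that binds laminin at hemidesmosomes, was at 21.4 CPM in HK2, against 1.32 in 786-O and 0.834 in 786-M1A, with log2FC values of -4.01 and -4.68 (edgeR adjusted p = 4.42e-18 and 1.87e-18). *BCAM*, a receptor of laminin alpha 5, was at 19.6, 6.25 and 2.19 CPM in the 3 lines, and *ITGA7* was lower by -2.13 and -3.31 (adjusted p = 9.35e-11 and 1.46e-12). Between the cancer lines, 1 receptor was higher and 7 were lower in 786-M1A (27.9% and 28.0% of all genes), *BCAM* by -1.51, *ITGA7* by -1.18 and *ITGA1* by -0.87 (edgeR adjusted p = 1.48e-10, 0.00118 and 4.43e-09).

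Markers of other cells that make matrix were read beside these results. The summed level of 8 fibroblast markers was 188 to 193 CPM in HK2, against 17.2 to 19.2 in 786-O and 285 to 291 in 786-M1A. *FBLN1*, also listed above, gave 163 CPM of the sum in HK2, and *PDGFRB* gave 282 CPM of it in 786-M1A. At 1 CPM or more were 3 of the 8 in HK2 and 2 in each cancer line. *LUM*, a further marker of the list, was at 22.5 CPM in HK2, against 14.6 in 786-O and 5.48 in 786-M1A, while *DCN* and *PDGFRA* had at most 7 counts in any library. Of 5 endothelial markers the sum was at most 1.16 CPM, and the immune markers *PTPRC* and *CD3E* were at 0 in every library, while *CD68* carried the immune sum of 49.1 to 53.7 CPM in HK2, against 26.6 to 27.6 in 786-O and 34.2 to 37.6 in 786-M1A. The 7 kidney epithelial markers summed to 1430 to 1470 CPM in HK2, against 639 to 690 in 786-O and 910 to 1020 in 786-M1A. Of that sum, *KRT8* gave 664, 302 and 385 CPM in HK2, 786-O and 786-M1A, and *KRT18* gave 428, 165 and 186. The part of all these markers in the results above was not tested.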

How the data were processed

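RNA-seq libraries of HK2, 786-O and 786-M1A cells (3 each) were made with TruSeq Stranded mRNA. The authors used Rsubread on hg38 to count reads per gene, and the deposited values are whole-number counts, neither normalized nor filtered. The submitters' processing notes name featureCounts. The annotation version and strand setting are not given in the sources used here. Symbols came from RefSeq (27745 of 28395 identifiers matched), positions, overlaps and canonical transcript lengths from GENCODE 44. Promoter windows came from RefSeq on GRCh38.p14.

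The study's filter, a mean of 50 counts, left 12695 genes, which were scaled by TMM and tested with edgeR 4.0.16 in R 4.3.3 (robust quasi-likelihood fit of all 9 libraries, a coefficient per line, Benjamini-Hochberg over all genes tested). CPM are on TMM-corrected totals, with factors between 0.967 and 1.03. Standard errors come from the F statistic. The fits were first tested on simulated data. Alternatives were DESeq2 1.42.0, limma 3.58.1 on log2 counts (0 set to 0.5), RLE and upper-quartile scaling, other filters, a fit of 2 lines, a replicate block, and fits lacking 1 library. The limma alternative stands in for the VSN and limma steps of the study. An exact permutation test of 3 against 3 libraries cannot give a p below 0.1, so none was used.

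Members were taken by symbol, but the choice of this family and of the gene lists was made with earlier results of these data known. Members tested with a 2-fold difference in any comparison are named with values. Per-library values were planned for chains of chosen collagen types and laminin trimers and for the 5 highest and 5 lowest log2 fold changes. Some of these, *COL9A2*, *COL27A1*, *COL8A1* and *LAMB2* among them, are given by mean and SD or by range instead. Of each pathway list the 3 genes with the largest log2 fold changes are named. *COL28A1*, *COL11A2* and other members not tested were named after their values were seen. The gene-length alternative was chosen after seeing the data. A member that enters the counts and totals is not reported here by itself. Figures were drawn with matplotlib 3.10.9.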

Additional observations from a re-analysis of the deposited data

Results flagged for a closer look

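In 5 members the cancer lines lay on opposite sides of HK2, each called against it, and the difference between their effects is the difference between 786-M1A and 786-O. Of all 12695 genes tested, 84.2% were called in 786-O and 84.9% in 786-M1A against HK2. The share of all genes with opposite calls is not given here, so the 5 are not read as particular to these families. The log2 value of 786-M1A against 786-O from edgeR was -4.15 for *COL1A1* (adjusted p = 2.70e-10), -8.23 for *COL3A1* (adjusted p = 3.53e-14) and -8.88 for *COL4A5* (adjusted p = 1.86e-20). It was -0.76 for *COL8A1* (adjusted p = 7.82e-12) and -0.55 for *LAMB3* (adjusted p = 1.68e-09). All 5 were higher in 786-O and lower in 786-M1A than in HK2. The fitted value of *COL3A1* rests on 1 read in 786-M1A and depends on the prior count, so its counting ratio in the text above is the safer measure. For *LAMB3* the log2 fold change of 0.13 between 786-O and HK2 (edgeR adjusted p = 0.0118) kept its direction but was not called under upper-quartile scaling (0.09, adjusted p = 0.0794) and without HK2 replicate 1 (0.10, 0.0705).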

How the results depend on the processing

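Of 1281 recomputed log2 fold changes of the members tested, 1236 kept their direction and their side of the threshold, 8 lost the call, 28 gained it and 9 changed sign. Fitting all genes, unfiltered, tested 56 members. It gave 32 with a 2-fold difference in each comparison with HK2, against 20 and 21 (25.5% and 27.8% of all genes fitted). Between the cancer lines it gave 16, against 10 (7.49%). Requiring 10 counts per library left 24 members tested. That gave 13 in each comparison with HK2 (18.4% and 21.6% of all genes) and 7 between the cancer lines (4.73%). More members are tested in the first case and fewer in the second. On leaving out each library in turn, members called numbered 29 to 30 between 786-O and HK2, 29 between 786-M1A and HK2 and 21 to 24 between the cancer lines, and those with 2-fold 19 to 20, 20 to 21 and 10 to 11. Sign changes were seen between 786-M1A and HK2 for *COL12A1* under limma (0.02) and unfiltered (0.01), and with a library left out for *COL12A1* (-0.10 to 0.08), *COL17A1* (-0.13 to 0.07) and *COL6A2* (-0.004 to 0.10), and between the cancer lines for *LAMB1* (-0.04 to 0.04). The reversed values were not called, and the cause was not tested. *COL27A1* lost its call between the cancer lines without 786-O replicate 3 (adjusted p = 0.0626) or 786-M1A replicate 1 (0.125). *COL5A2*, *COL6A2* and *LAMC1* between 786-O and HK2, *COL6A2* between 786-M1A and HK2, and *COL9A2*, *COL8A2* and *LAMC1* between the cancer lines, none of them called in the report, were called under some alternatives. Under the replicate block, 30, 29 and 23 members were called (84.2%, 85.0% and 56.4% of all genes). There *LAMA3* lost its call between the cancer lines (adjusted p = 0.0677), while *COL6A2* between 786-O and HK2 (0.0436) and *COL9A2* between the cancer lines (0.0413) gained one. Same-numbered libraries deviated together with correlations across genes of 0.215, 0.0740 and 0.110 for the cancer lines and between -0.167 and 0.0376 for each of them with HK2, so the numbers were not taken as pairs. At this depth, members with a few reads per library cannot be ranked within a line.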
